A study of Homo sapiens with 4 samples.

Results

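Small nucleolar and small nuclear RNAs of H1299, an established human lung carcinoma line, are described here from poly(A)-selected RNA-seq libraries. Members were all transcript rows whose annotated gene type was snoRNA, snRNA or scaRNA, which gave 2913 of 206601 transcripts, namely 955 snoRNA, 1909 snRNA and 49 scaRNA rows from 2901 genes. Cells exposed for 48 h to 0.5 mM methylparaben, a preservative of cosmetics and foods, supplied 2 libraries. Cells labelled EtOH (ethanol) and control supplied 2 more, with no ethanol dose or time in the labels. The question is which of these RNAs had more or fewer reads after methylparaben. Nothing in the labels says whether the duplicates were separate cultures, so a p-value here reflects the spread between samples that may be technical repeats. The cell line markers VIM, AXL, KRT8 and KRT18 had reads in every library, and PTPRC, CD3E, HBB, ALB, SFTPC and SFTPB, markers of other cells, had 0 reads in all 4 libraries. The deposited counts leave out bases annotated to several transcripts, as described below, so 0 reads cannot show that a gene was silent. Genes of the small RNA protein lists below, such as NHP2 and SNRNP70, also had 0 reads in all 4 libraries. VIM and AXL themselves fell by 1.19 ± 0.25 (SE) and 1.41 ± 0.20 on the log2 scale, adjusted p = 0.00565 and 0.000733 by edgeR's quasi-likelihood test.

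Small nucleolar RNAs (snoRNAs) guide chemical modification of other RNAs, above all ribosomal RNA. Box C/D snoRNAs (symbols SNORD) direct ribose methylation with the methyltransferase fibrillarin, and box H/ACA snoRNAs (SNORA) direct pseudouridylation with dyskerin; small Cajal body RNAs (SCARNA) do the same for spliceosomal RNAs. Most human snoRNAs lie within introns of host genes, many of them genes for ribosomal proteins and translation factors, and are trimmed from the excised intron. Small nuclear RNAs (snRNAs) such as U1, U2, U4, U5 and U6 form the spliceosome, and U7 acts in histone mRNA end formation. Mature snoRNAs and most snRNAs have no poly(A) tail, so libraries made from poly(A) RNA are not designed to hold them, and a read on such a row can come from the mature RNA or from a longer transcript that contains it. Which of these the reads came from was not tested.

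The sequences of 6 members with many reads are shown because they include a snoRNA pair from the same host (SNORA33 and SNORD101, in RPS12), a C/D pair of the same family from different hosts (SNORD14E in HSPA8 and SNORD14A in RPS13), and an H/ACA snoRNA with a related copy elsewhere (SNORA75 in NCL, and ENSG00000212533, whose symbol in the gene name table is also SNORA75). They are GENCODE release 29 transcripts on GRCh38, 5′ to 3′, with capitals for a C box (TGATGA) and a D box (CTGA) or for the ACA near the 3′ end.
SNORA33: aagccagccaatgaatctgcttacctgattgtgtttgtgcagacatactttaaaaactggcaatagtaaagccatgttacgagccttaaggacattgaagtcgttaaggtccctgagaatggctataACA
SNORD101: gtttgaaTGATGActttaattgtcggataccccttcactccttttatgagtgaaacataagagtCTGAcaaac
SNORD14E: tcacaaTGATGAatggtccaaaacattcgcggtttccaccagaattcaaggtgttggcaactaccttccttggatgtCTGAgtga
SNORD14A: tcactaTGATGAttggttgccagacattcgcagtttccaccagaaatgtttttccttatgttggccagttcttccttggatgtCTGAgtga
SNORA75: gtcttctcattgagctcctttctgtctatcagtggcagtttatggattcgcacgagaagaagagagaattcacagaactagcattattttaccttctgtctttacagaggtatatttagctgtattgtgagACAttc
ENSG00000212533: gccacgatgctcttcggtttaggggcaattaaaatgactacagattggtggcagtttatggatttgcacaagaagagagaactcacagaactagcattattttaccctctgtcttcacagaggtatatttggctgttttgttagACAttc
These lie at chr6:132817219-132817348 (plus strand), chr6:132815307-132815379 (plus), chr11:123058077-123058161 (minus), chr11:17074654-17074744 (minus), chr2:231455800-231455936 (minus) and chr12:31076867-31077016 (minus), in that order. SNORD14E and SNORD14A were identical at 72 of 93 aligned positions (77.4%), and SNORA75 and its copy at 117 of 154 (76.0%). On the RNA's own strand, both TGATGA in the first 25 bases and CTGA in the last 15 were found in 63.7% of 292 C/D members, 0% of 153 H/ACA members and 0.0353% of 203700 transcripts that are no members. An ACA followed by 0 to 4 bases ended 90.2% of H/ACA members, 4.45% of C/D members and 9.30% of the transcripts that are no members. A missing match says only that these letters were not in the window.

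Few members could be read. The deposited counts hold reads only on bases annotated to no more than 1 transcript (single-transcript bases below), and 221 members had no such base and 0 reads. Of the other 2692, reads were found on 433, and 2259 had none. Member reads numbered 3627, or 0.0349% of all reads, with 621, 588, 1651 and 767 in ethanol 1, ethanol 2, methylparaben 1 and methylparaben 2, the order used throughout. Library totals were 2368658, 2182058, 3760982 and 2068486 counts. A member without a read in a library may be at up to 1.28, 1.30, 0.816 or 1.57 CPM there, the value of 3 counts, where CPM is the count divided by the scaled library size in units of 1e6 reads; such limits cover counting error only. Reads were on 166, 208, 224 and 216 members per library, on 44 members in all 4 libraries, and on 217 members in only 1 library.

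Annotation limited which snoRNAs of a host could be read, though a single-transcript base did not ensure a read. All 4 listed snoRNAs in RPL13A and all 5 in EIF4A2, hosts for ribosomal protein and translation initiation factor mRNAs, lacked a single-transcript base, as did 6 of 7 in the noncoding host SNHG1. In HSPA8, SNORD14E had all of its 85 bases to itself, whereas SNORD14C and SNORD14D overlapped host exons and had none. All 3 snoRNAs of RPS12 could be read and held 584 reads, more than those of any other host. Among C/D members, 34 of the 36 with reads lay between exons of their host, at a median of 100 bases from the nearest exon, against 189 bases for the 131 that lay so, had a single-transcript base and had no read. Among H/ACA members the medians were 177 bases for 45 with reads and 661 bases for 35 without. These distances were not tested.

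C/D and H/ACA snoRNAs held more reads in both methylparaben libraries than in either ethanol library, and snRNAs did not. The 292 C/D members summed to 85, 102, 416 and 199 reads, which is 40.1 ± 5.66 CPM with ethanol and 109 ± 6.39 CPM with methylparaben (mean ± SD, n = 2 per group), a 2.71-fold ratio. The 153 H/ACA members had 78, 128, 411 and 177 reads, or 44.3 ± 15.7 and 102 ± 13.6 CPM, a ratio of 2.31. Of these classes, H/ACA differed more between the ethanol libraries, and the groups did not overlap for either class. The 506 other snoRNA rows, most of them listed under an RNA family number in place of a symbol, went from 39.6 ± 8.30 to 75.2 ± 10.9 CPM, a ratio of 1.90.

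The 1909 snRNA rows had 330, 263, 488 and 246 reads, or 127 ± 18.7 CPM with ethanol and 131 ± 2.85 CPM with methylparaben, a ratio of 1.03 whose interval for counting error was 0.926 to 1.15 (95%, exact binomial). The methylparaben libraries lay between the ethanol libraries. These sums take every member, with no filter on low values, and have no test: with 2 libraries against 2 the smallest two-sided exact permutation p is 0.333. In bulk RNA, more transcript per cell and more cells holding it cannot be told apart.

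**Figure D1:**
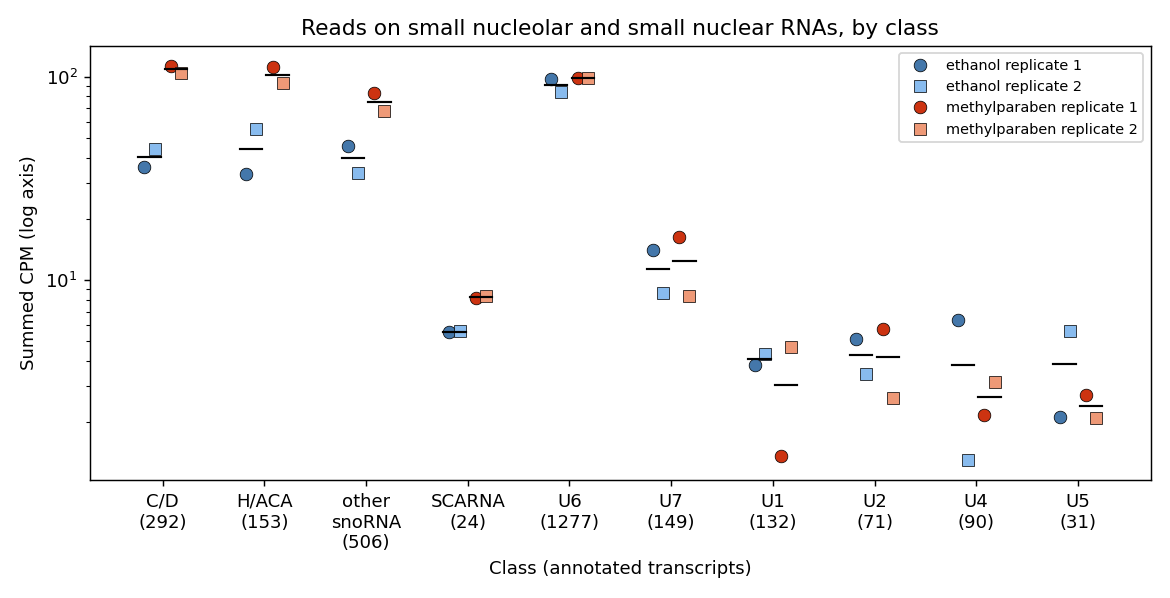
Summed CPM (log axis) of each class in each library, with the number of annotated transcripts in brackets; points are libraries and bars are group means. The C/D and H/ACA points with methylparaben lie above both ethanol points, while the U6 points lie close together and the points of U1, U2, U4 and U5 rest on few reads.

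Other features read in the same libraries stand beside these sums. Transcripts annotated as retained introns went from 26665 ± 1186 to 42939 ± 294 CPM, a ratio of 1.61, and their part in the snoRNA result was not tested. Rows of gene type misc_RNA, other small noncoding RNAs, went from 74.0 ± 1.83 to 142 ± 5.12 CPM, and rows of type miRNA from 147 ± 17.3 to 95.4 ± 3.20 CPM. No difference between these sets and snoRNAs was tested.

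Only 14 members had enough reads to enter the fit over 8055 genes (edgeR's quasi-likelihood test, Benjamini-Hochberg adjustment over all genes tested, threshold 0.05). Of these, 9 were higher with methylparaben and 0 lower, beside 18.5% higher and 18.4% lower among all genes tested. The filter needs 4.39 CPM in at least 2 libraries, and 13 of the 14 met it only through the methylparaben libraries, so the filter itself favoured members that were higher there and their count is no support for a rise of the class. SNORA33 alone met it in both groups. The median log2 fold change of all genes tested was 0.03. Without the filter, 15 of 433 members were called, 13 higher and 2 lower, beside 7.42% higher and 6.82% lower among 22450 genes. The other 419 members with reads did not pass the filter.

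SNORA33, an H/ACA snoRNA in RPS12, had the most reads of all members, with 39, 46, 241 and 80. It rose from 18.2 ± 2.35 to 53.7 ± 16.8 CPM (SD, n = 2), a log2 fold change of 1.57 ± 0.32 (SE) with an adjusted p of 0.00463 by edgeR. Both methylparaben libraries were above both ethanol libraries, and methylparaben 1 was the highest. SNORD101, a C/D snoRNA of the same host, had 9, 17, 79 and 26 reads and rose by 1.67 ± 0.48 (adjusted p = 0.0229). SNORD100, between them in the gene, had 12, 2, 20 and 13 reads and did not pass (1.0 ± 0.73, adjusted p = 0.306). Its ethanol values, 5.10 and 0.866 CPM, lay below its methylparaben values, 5.44 and 6.80 CPM, but ethanol 1 was close to methylparaben 1. The call for SNORD101 was lost without ethanol 1 (adjusted p = 0.143) or without methylparaben 1 (0.132), and was 0.0557 by DESeq2.

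**Figure D2:**
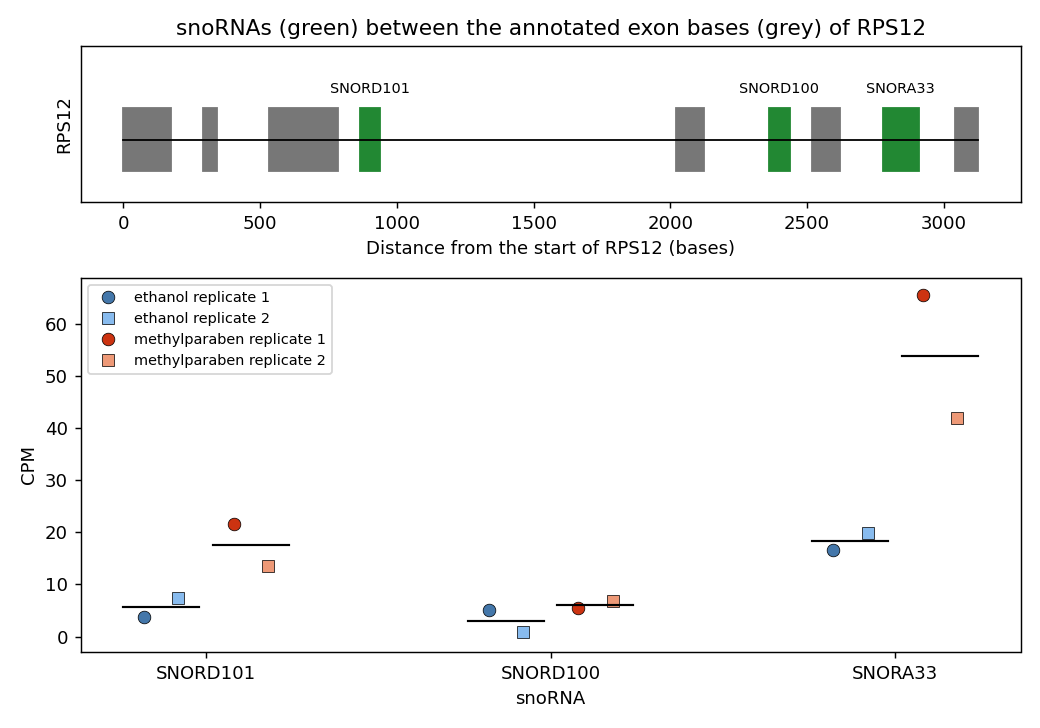
Top, the 3 snoRNAs (green) and the merged annotated exon bases (grey) of RPS12 by distance from the start of the gene; bottom, CPM of each snoRNA in each library, with bars for group means. SNORD101 and SNORA33 are higher in both methylparaben libraries, and for SNORD100 the ethanol 1 point lies just below the methylparaben 1 point.

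SNORD14E, in an intron of the chaperone gene HSPA8, had 6, 6, 53 and 29 reads. It rose 2.50 ± 0.50 on the log2 scale (adjusted p = 0.00440), from 2.57 ± 0.0320 to 14.8 ± 0.535 CPM. Its relative SNORD14A in RPS13 had 7, 16, 37 and 12 reads and did not pass (0.75 ± 0.57, adjusted p = 0.330). Its ethanol 2 value, 6.93 CPM, lay above its methylparaben 2 value, 6.28 CPM. The difference between these 2 snoRNAs was not tested. SNORD19C, in an intron of the nucleolar GTPase gene GNL3, had 5, 14, 52 and 24 reads and rose by 1.70 ± 0.55 (adjusted p = 0.0350). That call was lost by DESeq2 (0.0910) and without ethanol 1 (0.205) or methylparaben 1 (0.0848). SNORD19 in the same host had 0, 0, 4 and 9 reads and did not pass the filter; without the filter its adjusted p was 0.0394.

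SNORD94, in PTCD3, a gene for a mitochondrial ribosome protein, had 0, 0, 17 and 10 reads. It was called higher with methylparaben (adjusted p = 0.00522 by edgeR). With 3 counts taken as the limit over the ethanol group, and the methylparaben reads taken as exact, the ratio was 7.51. The exact 95% interval of the ratio, which takes in the counting error of both groups, starts at 5.70. Its host was not called: PTCD3 was at 168 ± 7.92 and 132 ± 14.7 CPM (-0.35 ± 0.18, adjusted p = 0.159). Without ethanol 1 or ethanol 2 the log2 fold change of SNORD94 was 6.70 or 6.72, and the call was lost in both. Its methylparaben values, 4.63 and 5.23 CPM, were close to the filter's 4.39 CPM. SNORD94 was not tested at a filter of 5 CPM in 2 libraries or without methylparaben 1. SNORD117, in the RNA helicase gene DDX39B, had 0, 4, 27 and 16 reads and rose by 3.11 ± 0.87 (adjusted p = 0.0195). Without ethanol 1 its log2 fold change was 2.12 (adjusted p = 0.131) and without ethanol 2 it was 7.38, and limma on log2 FPKM with pseudocounts 1 and 0.1 gave adjusted p = 0.0613 and 0.118.

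The 3 rows listed under an RNA family were also tested. ENSG00000212533, the copy of SNORA75 shown above, which has no host on its strand and lies opposite DDX11, had 9, 6, 57 and 20 reads and rose by 2.02 ± 0.52 (adjusted p = 0.0139, 0.0593 without ethanol 2 and 0.115 without methylparaben 1). SNORA75 itself, in the nucleolin gene NCL, had 2, 11, 24 and 16 reads and did not pass (1.38 ± 0.71, adjusted p = 0.153). ENSG00000238390, a snoRNA row in SOD1 on chromosome 21, had 3, 1, 19 and 10 reads and rose by 2.53 ± 0.75 (adjusted p = 0.0251), a call that 7 of its 13 alternatives lost, the replicate block among them (0.0664). ENSG00000238840, whose symbol in the gene name table is U8, had 4, 13, 32 and 22 reads and did not pass (1.44 ± 0.61, adjusted p = 0.0911), but did without ethanol 2 (2.54, adjusted p = 0.0350). Whether reads were counted by strand is not given in the sources used here, so reads of ENSG00000212533 cannot be told apart from reads of an unannotated stretch of the gene opposite it.

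**Figure D3:**
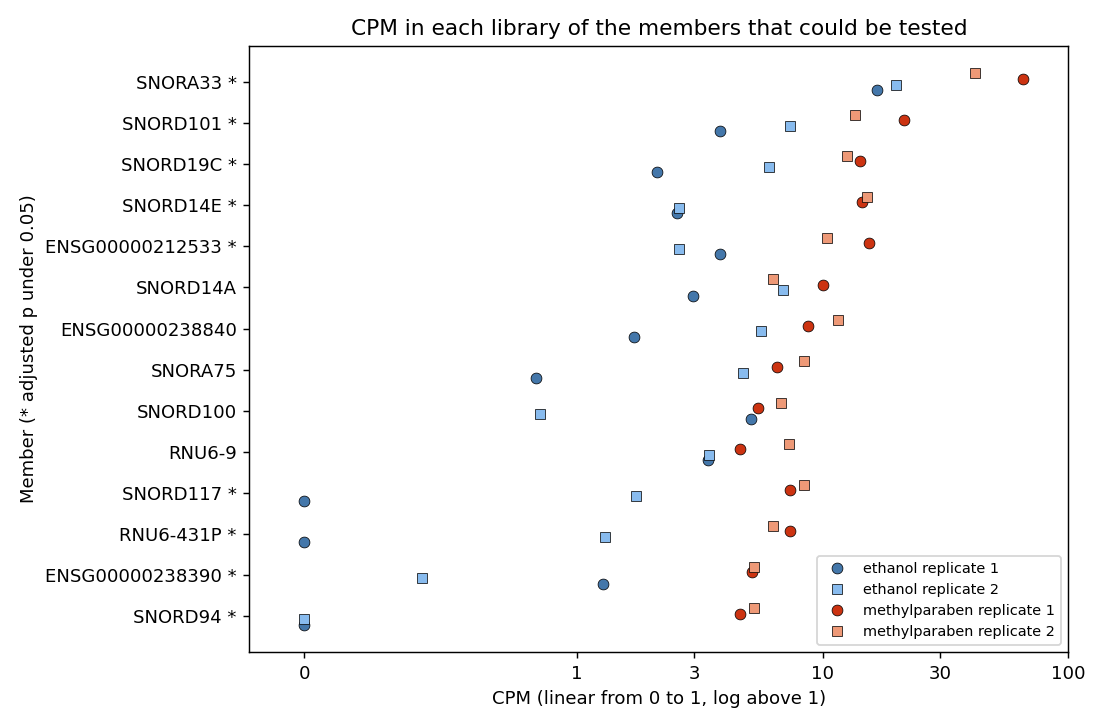
CPM in each library (linear from 0 to 1, log above 1) of the 14 members that passed the filter, ordered by reads, with an asterisk where the adjusted p was under 0.05. Both methylparaben points lie to the right of both ethanol points in the 9 marked members and in every unmarked member but SNORD14A. The filter and the test used these same values, so this separation is no further support.

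Among the other C/D and H/ACA members with most reads, SNORD59A in ATP5F1B had 3, 5, 25 and 4 reads and SNORD6 in TAF1D had 3, 5, 22 and 5. In both the higher level rested mainly on methylparaben 1, and for SNORD59A methylparaben 2 lay below ethanol 2 in CPM. H/ACA members after SNORA33 and SNORA75 held few reads: SNORA11F had 3, 11, 9 and 5, SNORA28 in EIF5 had 6, 1, 12 and 6, and SNORA66 in RPL5 had 0, 6, 11 and 6. SNORA55 in PABPC4 (3, 5, 10 and 4), SNORA22 in CCT6P1 (1, 6, 11 and 2) and SNORA20 in TCP1 (0, 5, 13 and 1) were no clearer. None of these passed the filter, and SNORA33 held 406 of the 794 H/ACA reads. Without SNORA33 the log2 ratio of the H/ACA sum was 0.90 in place of 1.21, and without SNORD101 that of the C/D sum was 1.40 in place of 1.44.

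Small Cajal body RNAs had few reads. The 24 SCARNA members had 13, 13, 30 and 16 reads in all, or 5.58 ± 0.0694 and 8.27 ± 0.149 CPM. SCARNA8, in the mitotic spindle gene HAUS6, had 3, 1, 16 and 6 of these, and without it the log2 ratio of the sum changed from 0.57 to -0.063. SCARNA7, in the nuclear import gene KPNA4, had 4, 9, 7 and 2 reads, and SCARNA13 had 4, 1, 3 and 2. SCARNA1 had 2, 1, 0 and 2, SCARNA5 had 0, 0, 3 and 1, SCARNA18 had 0, 0, 0 and 2, SCARNA6 had 0, 1, 0 and 1, and SCARNA11 had 0, 0, 1 and 0. No SCARNA member passed the filter. The 29 other rows of gene type scaRNA, which carry no SCARNA symbol, had 8, 4, 1 and 0 reads, or 2.57 ± 1.18 and 0.136 ± 0.192 CPM, a ratio by counts of 0.0695 (95% interval 0.00163 to 0.470, counting error only). Only 3 of these rows had reads, and 1 row held 10 of the 13 reads, so the ratio describes mainly that row.

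Most snRNA reads lay on U6 rows. The genome carries many copies and pseudogenes of U6, the RNA at the catalytic centre of the spliceosome: 1277 of the 1909 snRNA rows were U6, and 179 of these had reads. Their sum was 228, 194, 362 and 188 reads, or 90.5 ± 9.19 and 98.4 ± 0.0759 CPM. Rows with a pseudogene name made up 1783 snRNA rows and went from 110 ± 18.7 to 114 ± 8.23 CPM, and the 126 others from 17.4 ± 0.0873 to 17.1 ± 5.37 CPM. Exact copies are uncertain, since reads that fit several places may be lost or shared: 91 snRNA rows share their whole sequence with another member, and 23 of these had reads.

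RNU6-9, whose sequence 7 members share, had 8, 8, 17 and 14 reads and did not pass (0.75 ± 0.58, adjusted p = 0.339). RNU6-8, which has 1 exact copy, RNU6-7, had 11, 9, 2 and 2 reads, and RNU6-7 had 1, 0, 0 and 2. RNU6-1 and RNU6-2, exact copies of RNU6-9, had 0, 0, 3 and 0 reads and 0, 2, 2 and 2 reads. RNU6-6P (12, 4, 16 and 8), RNU6-833P (9, 6, 11 and 9), RNU6-36P (10, 3, 14 and 4) and RNU6-4P (7, 2, 10 and 9) each had overlapping groups in CPM. RNU6-431P, in an intron of the oligosaccharyltransferase subunit gene OSTC, had 0, 3, 27 and 12 reads and rose by 3.32 ± 0.89 (adjusted p = 0.0159). Its ratio by counts was 10.8 (95% interval 3.45 to 54.9, counting error only), and the call was lost without ethanol 1 (adjusted p = 0.142) or methylparaben 1 (0.0843).

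The other spliceosomal types had few reads, and none of their rows passed the filter. U1 rows (132) had 9, 10, 5 and 9 reads, U2 rows (71) 12, 8, 21 and 5, U4 rows (90) 15, 3, 8 and 6, and U5 rows (31) 5, 13, 10 and 4. U4atac and U6atac, of the minor spliceosome, had 4, 4, 4 and 2 reads and 9, 2, 0 and 2 reads, and U11 rows had 0, 0, 1 and 0, all on RNU11-2P. RNU1-1 and RNU2-1, with 164 and 191 single-transcript bases, had 0 reads in every library. Their whole sequences are shared by 8 and 11 members, so reads that fit several places may have been lost. Among rows with the most reads of their type, RNU2-22P had 3, 4, 4 and 1, RNU1-103P had 0, 0, 1 and 5, RNU4-52P had 4, 0, 3 and 0, RNU5E-4P had 4, 2, 3 and 1, RNU4ATAC18P had 2, 2, 2 and 1, and RNU6ATAC16P had 4, 0, 0 and 0. U7 rows (149) had 33, 20, 60 and 16 reads, and RNU7-75P, opposite the nuclear pore gene NUP155, had 3, 0, 34 and 8 of them, a ratio of 11.7 (95% interval 3.73 to 58.9). RNU7-75P did not pass the filter, and without the filter its adjusted p was 0.00302.

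Members and host genes were then set side by side, a host being the gene on the same strand that contains the member. Reads of C/D and H/ACA members in hosts that were themselves higher (47 members) numbered 80, 106, 506 and 208, or 39.95 ± 8.38 and 123 ± 20.4 CPM, a ratio of 3.09. RPS12 supplied much of this, and without it the ratio was 3.49, from 13.1 ± 6.53 to 45.9 ± 0.998 CPM over 44 members. In hosts that were not called (105 members) the ratio was 2.14, from 23.4 ± 8.48 to 50.1 ± 3.46 CPM. In hosts that were lower (20 members) it was 1.66, from 3.21 ± 1.48 to 5.32 ± 1.36 CPM. By counts that ratio was 1.56, with an exact 95% interval of 0.804 to 3.14. The 37 members with no host had 3, 11, 9 and 5 reads, all on SNORA11F, a ratio of 0.839. No difference between these host groups was tested.

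For snRNA rows, most of them with pseudogene names, the ratio was 2.63 in higher hosts (38 rows, from 4.28 ± 1.77 to 11.3 ± 4.84 CPM), 0.787 in hosts not called, and 0.436 in lower hosts (39 rows, from 8.58 ± 0.500 to 3.74 ± 0.103 CPM). In higher hosts RNU6-431P in OSTC held 0, 3, 27 and 12 of the 13, 7, 54 and 15 reads. The ratio without RNU6-431P was not computed, so 2.63 is no result about the other rows. The value in lower hosts rested on RNU6-26P in DCBLD2, with 16, 9, 3 and 1 reads, and was 0.95 without it. DCBLD2, a membrane receptor-like gene, fell by 2.19 ± 0.18 on the log2 scale (adjusted p = 7.54e-05). The 1252 snRNA rows with no host, among them most U6 copies, went from 74.8 ± 10.3 to 80.9 ± 3.24 CPM, a ratio of 1.08.

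**Figure D4:**
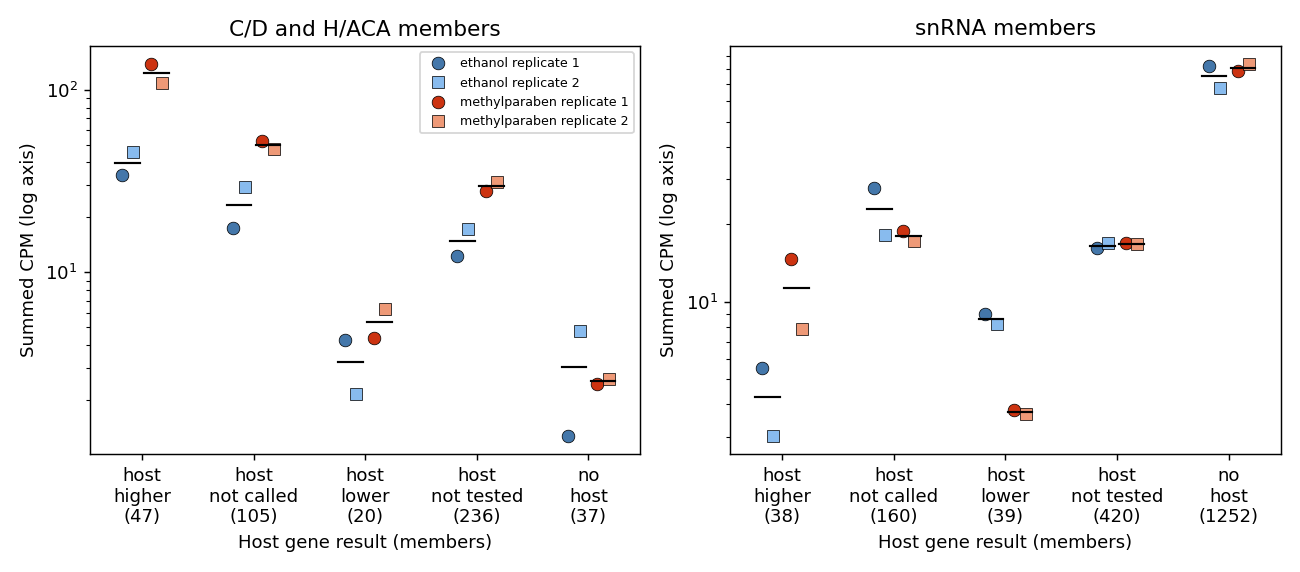
Summed CPM (log axis) of C/D and H/ACA members (left) and snRNA members (right) by the result of their host gene in the fit, with the number of members in brackets; points are libraries and bars are group means. The C/D and H/ACA members in higher hosts have the most reads, and most snRNA reads lie on rows with no host.

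Of the 9 hosts of tested members, 6 had over 90% of their reads on retained-intron transcripts, and OSTC, SOD1 and PTCD3 did not. The same count over all genes was not made, so 6 of 9 is no result about hosts. Host reads, too, lie only on single-transcript bases. A host's level and retained-intron share therefore describe those bases and not all of its RNA, and this holds for the protein genes below as well. RPS12 had 5, 5, 36 and 20 reads, 100% of them on such transcripts, and rose by 2.21 ± 0.56 (adjusted p = 0.0122). HSPA8 had 4, 5, 32 and 10 reads (94.1% retained intron, 1.86 ± 0.63, adjusted p = 0.0402), and DDX39B had 25, 35, 93 and 92 (98.0%, 1.48 ± 0.40, adjusted p = 0.0164). OSTC had 0, 3, 25 and 24 reads, 0% on retained introns, and rose by 3.77 ± 0.90 (adjusted p = 0.00972). RPS13 (99.0% retained intron) and NCL (92.2%) did not pass, at 0.92 ± 0.51 and 0.88 ± 0.35, as their snoRNAs SNORD14A and SNORA75 did not. GNL3 had 0, 2, 3 and 10 reads and did not pass the filter. SOD1 had 9, 7, 12 and 11 reads, 0% on retained introns, and was not in the fit. PTCD3, the host of SNORD94, had 8.12% of its reads on retained introns, and DCBLD2 had 7.03%.

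Over 52 members with at least 10 reads in hosts with at least 10 reads, the median log2 ratio was 0.91 for members and 0.51 for hosts, a host counting once for each of its members (46 different hosts), with 0.5 reads added to each library. For 18 C/D members the medians were 1.27 and 1.44, for 11 H/ACA members 0.99 and 0.81, and for 11 snRNA rows 0.25 and -0.16. Members of the same host share it and are not independent. Reads were counted over all 4 libraries, of which methylparaben 1 was the deepest, so a member could reach 10 reads through 1 group alone. The cut itself can therefore move these medians, and they are no support for a rise of members or for a difference from hosts. With at least 30 reads required, 12 members remained, at 1.58 and 1.54 for their hosts. Without methylparaben 1 the medians of members and hosts were 0.40 and 0.41, and without ethanol 2 they were 1.40 and 0.42. Without retained-intron transcripts in the hosts 37 members remained, at 0.39, and their hosts at -0.17.

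**Figure D5:**
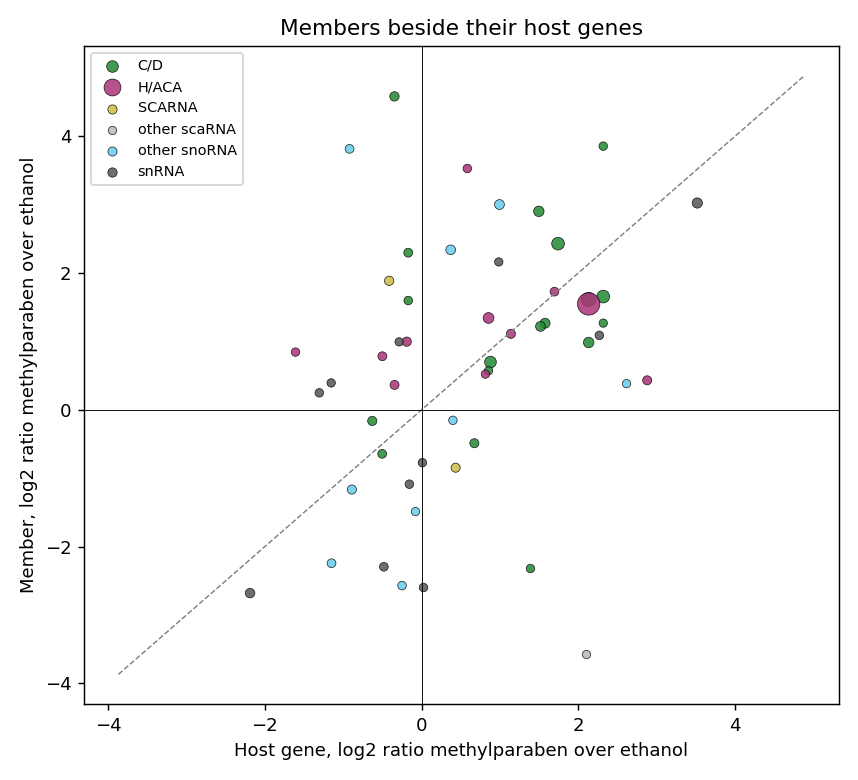
Log2 ratio of methylparaben over ethanol for 52 members against that of their hosts; point size grows with member reads, colours mark the class, and the dashed line marks equal ratios. SNORA33 is the largest point, SNORD94, the highest point, stands above a host at -0.35, and RNU6-26P is at the lower left with DCBLD2.

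Noncoding hosts gave little. SNHG12 holds 5 snoRNA rows, and only SNORD99, with 0, 3, 14 and 8 reads, could be read. ZFAS1 holds SNORD12B, with 7, 7, 0 and 8 reads.

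Genes for proteins that assemble, bind or make these RNAs were called about as often as all genes. Of 93 listed genes 47 passed the filter, 8 rose and 9 fell, beside 18.5% and 18.4% of all genes tested, and the median log2 fold change was 0.11 against 0.03 over all genes. Of the core box proteins, DKC1, which encodes the pseudouridine synthase dyskerin, rose by 2.50 ± 0.63 (adjusted p = 0.0122) from 2, 12, 62 and 34 reads, 93.6% of them on retained-intron transcripts. NOP58, a C/D core protein and snoRNA host, fell by 0.63 ± 0.22 (adjusted p = 0.0483), and FBL, fibrillarin, had 3, 7, 17 and 15 reads and did not pass (adjusted p = 0.112).

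Of 8 tested Sm, U1, U2 and U5 proteins, 3 fell and 0 rose: the Sm ring genes SNRPD1, with 93, 120, 26 and 10 reads (-2.85 ± 0.35, adjusted p = 0.000413), SNRPE, with 27, 17, 2 and 2 (-3.61 ± 0.71, adjusted p = 0.00401), and SNRPD3 (-1.75 ± 0.62, adjusted p = 0.0478), with 0% of reads on retained introns in each. The median of the 8 was nevertheless 0.84, opposite in sign to the 3 calls. LSM5, of the ring that binds U6, fell by 1.56 ± 0.24, while PRPF3 of the U4/U6 particle rose by 1.41 ± 0.35. Of 11 tested genes for snRNA transcription and end formation, 5 rose and 2 fell. The Integrator subunit genes INTS8 (1.66 ± 0.33), INTS3 (0.95 ± 0.20) and INTS10 (1.70 ± 0.36) rose with 97.5%, 98.4% and 97.3% of reads on retained introns, and INTS6 fell by 2.0 ± 0.26 with 0.131%. INTS4 rose by 1.52 ± 0.46 with 33.3% of reads on retained introns, and ICE1, a subunit of the little elongation complex, by 0.50 ± 0.17 with 1.21%. LARP7, which binds the small nuclear RNA 7SK, rose by 1.72 ± 0.40 with 55.8% of reads on retained introns. In snoRNP assembly RPAP3 fell by 1.02 ± 0.20 and ZNHIT6 by 1.49 ± 0.38. Without retained-intron transcripts 3 of 37 tested genes rose and 6 fell. The share of all genes called in that fit was not counted, so the change is no result about these genes.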

How the data were processed

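RNA from H1299 cells was sequenced after poly(A) bead pull-down and Illumina TruSeq preparation, per the labels' protocols. The authors deposited raw read counts per transcript, FPKM per transcript, log2 of FPKM plus 1 and p-values of their group comparison, per the file headers. The submitters' processing notes list GRCh38, DESeq2, limma and edgeR without roles; the aligner is not given in the sources used here, nor is the counting program. All 206601 transcripts matched GENCODE release 29 coordinates, and 2890 member genes had an entry in the gene name table. Counts were summed per gene, since the table holds transcripts, filtered with filterByExpr (minimum count 10, minimum total 15), scaled by TMM and tested with the edgeR 4.0.16 quasi-likelihood F-test in R 4.3.3, two-sided, Benjamini-Hochberg over 8055 genes. CPM use TMM-scaled library sizes. SE is the log2 fold change over the square root of F. The fit was tested on simulated data. Alternatives used DESeq2 1.42.0, limma 3.58.1 (voom, and log2 FPKM with pseudocounts 1 and 0.1), other scalings and filters, a replicate block and left-out libraries. Members, gene lists and the naming rule were chosen with earlier results of these data known. Named were all tested members, the 8 with most reads per class, the top row of each U type, their hosts, and the protein genes with the smallest p in each direction. Chosen after their values were seen were the 0 to 4 bases allowed after ACA, leaving SNORD19C out of the printed sequences, the sums without RPS12 and DCBLD2, and the mention of SNORD19, SNORD99, SNORD12B, RNU6-1, RNU6-2, RNU6-7, RNU6-415P, INTS4, ICE1, SNRPD3, NOP58 and FBL. The deposited p-values were used only to count calls.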

Additional observations from a re-analysis of the deposited data

How the results depend on the processing

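The count of members called, 9, was 15 without a filter on low counts (13 higher and 2 lower of 433; the lower ones, RNU6-26P and RNU6-415P, were chosen after their values were seen), 6 with DESeq2 and 4 to 10 with 1 library left out, the lowest without methylparaben 1 (4) and 5 without ethanol 1. The count of snoRNP and snRNP protein genes called, 17 of 47 tested, was 25 of 58 on transcript rows. It was 9 of 37 without retained-intron transcripts, an alternative chosen after seeing the data. The share of all genes called in these alternatives was not counted. With a library left out, the lone library of its group is assumed to vary like the other group. The log2 ratio of the SCARNA sum, 0.57, was 0.46 over library totals, 0.97 on summed FPKM, -0.063 without SCARNA8 and 0.70 for members clear of other genes' exons. The sums kept to 1.30 to 1.59 for C/D, 0.88 to 1.62 for H/ACA, 0.55 to 0.59 for SCARNA and -0.10 to 0.20 for snRNA with 1 library left out; the snRNA value, 0.04, was also -0.06 over library totals and -0.01 on summed FPKM, all within the spread between libraries. The median for members beside their hosts, 0.91, was 1.58 at 30 reads or more and 0.40 to 1.40 with 1 library left out, with hosts, 0.51, at 1.54 and 0.41 to 0.56. Where no value above shows it, the cause was not tested. With the replicate number as a block, 8 members and 14 protein genes were called, and the member lost was ENSG00000238390 (adjusted p = 0.0664). The labels give only a shared number, and same-numbered deviations correlated at -0.15 across genes; with the numbers crossed, chosen after seeing the data, 9 and 18 were called. Depth limits these results: 419 members with reads did not pass the filter, and 2259 with a single-transcript base had none.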

Other observations

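In the authors' deposited table, 24 of 2913 members had an adjusted p under 0.05, which is 5.54% of the members with reads against 11.1% of all transcripts with reads. Of these 24 in the authors' deposited table, 18 had a higher mean FPKM with methylparaben. The direction of all 4471 transcripts called by the authors was not counted, so 18 of 24 is no result about the members. Among the 24 were 8 of the 9 members called here, ENSG00000238390 being at an authors' adjusted p of 0.127. Reads were on methylparaben libraries alone for 148 members and on ethanol libraries alone for 116, and 127 members had 1 read in all. These counts were not scaled for depth, and methylparaben 1 was the deepest library, at 3760982 counts. The same counts over all transcripts were not made, so 148 against 116 is no result about the members.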
